A study of Homo sapiens with 8 samples.

Results

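The genes described here are the core of the mitochondrial death pathway, 8 in all: APAF1, CYCS and CASP9, which form the apoptosome, the effector caspase gene CASP6, the inhibitor of apoptosis protein (IAP) genes XIAP, BIRC2 and BIRC5, and the IAP antagonist gene DIABLO. They were chosen by symbol, with earlier results of these data known. Every probe set that the annotation of the array gives to 1 of these symbols was taken, whatever its value. This gave 15 of 22277 probe sets and 8 of 11963 genes with a named probe set. APAF1 and BIRC5 had 3 probe sets each, CASP9, CASP6 and XIAP 2 each, and CYCS, DIABLO and BIRC2 1 each.

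Transcripts were read on 8 Affymetrix human arrays of 1 colour, from 2 acute myeloid leukemia lines. THP-1 is labelled as monocytic and HL-60 as promyelocytic leukemia. The groups were THP-1 with diclofenac, THP-1 with DMSO, HL-60 with diclofenac and HL-60 with DMSO, 2 arrays each, titled as biological replicates. Diclofenac, a cyclooxygenase inhibitor used against pain and inflammation, was given at 100 µM for 48 h, DMSO was its solvent, and all cells grew in RPMI-1640 with bovine serum. The title of the series names apoptosis, differentiation and the transcription factor AP-1 as its subject, so the question here was whether transcripts of the apoptosome, its effector and its brakes differed with the drug. Nothing in the labels says whether replicates came from separate cultures, so a p-value measures only the spread between these arrays.

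In the mitochondrial pathway, cytochrome c, the product of CYCS, leaves the mitochondrial intermembrane space and binds APAF1. APAF1 then assembles into a wheel, the apoptosome, which recruits and activates the initiator caspase 9, and effector caspases downstream cut lamins and other substrates. XIAP blocks caspases directly, BIRC2 is a ubiquitin ligase of the tumour necrosis factor receptor complexes, and BIRC5 (survivin) also serves in the chromosomal passenger complex at mitosis. DIABLO leaves the mitochondria together with cytochrome c and displaces caspases from IAPs. Much of this pathway is set by protein release, binding and cleavage, none of which an RNA array measures.

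Promoter sequence is shown for APAF1, which had the largest difference with diclofenac among the members in HL-60, and for CASP6, which differed most between the lines. Each is the 250 bases before the annotated start in RefSeq, build GRCh38.p14, on the strand of the gene and 5′ to 3′. Capitals mark matches to a GC box (GGGCGG) or a CCAAT box (CCAAT) on either strand, so that CCGCCC and ATTGG are matches on the opposite strand.
APAF1, chr12:98645040-98645289, plus strand: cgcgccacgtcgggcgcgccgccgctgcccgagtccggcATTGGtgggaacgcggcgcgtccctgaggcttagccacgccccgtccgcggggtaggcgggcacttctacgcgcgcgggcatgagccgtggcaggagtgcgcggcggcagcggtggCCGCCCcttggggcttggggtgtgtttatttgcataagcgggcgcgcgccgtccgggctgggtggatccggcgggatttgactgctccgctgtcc
CASP6, chr4:109703446-109703695, minus strand: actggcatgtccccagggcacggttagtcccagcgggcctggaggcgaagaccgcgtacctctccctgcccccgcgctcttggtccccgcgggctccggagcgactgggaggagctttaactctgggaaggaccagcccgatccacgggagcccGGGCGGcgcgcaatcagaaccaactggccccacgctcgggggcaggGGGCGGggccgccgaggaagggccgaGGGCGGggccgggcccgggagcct
The APAF1 window held 1 GC box, 95 bases before the start, and 1 CCAAT box, 211 bases before it. The CASP6 window held 3 GC boxes, at 96, 50 and 24 bases before the start, and no CCAAT box. No match overlapped another. The windows were 73.6% and 74.0% G or C. Over all 35116 such windows of the genome table, 42.6% held a GC box and 32% a CCAAT box.

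The AP-1 element was searched as TGANTCA and the related cyclic AMP response element (CRE) as TGACGTCA, on both strands. RefSeq windows were found for 7 of the 8 members, 14 windows in all because some genes have several starts. The AP-1 letters were in 0 of these 14 windows, against 6.57% of all windows, and the CRE letters in 1, a BIRC2 window, against 1.65%. A letter match is no binding site, and these letters can lie outside the window.

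Each array carried 1 deposited intensity per probe set, and each had been scaled to the same trimmed mean. A probe set was counted as above background where it exceeded 95% of the 27 bacterial control probe sets of its own array. THP-1 DMSO replicate 2 stood apart: its background was 238.63, against 33.2 to 60.2 on the other 7 arrays, and 50.3% of its probe sets were above background, against 66.4% to 72.1%. It correlated with its replicate at 0.898 over log2 values, and the other replicate pairs at 0.977 to 0.984. Most values that use THP-1 with DMSO are therefore also given without it.

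The labelled identity of the lines was not settled by marker genes. Of 6 promyelocyte genes, which should mark HL-60, 4 were higher and 1 was lower in THP-1 than in HL-60 with DMSO. MPO, which encodes the myeloperoxidase typical of promyelocytes, was above background on neither HL-60 DMSO array, and on both HL-60 diclofenac arrays. MEIS1, a homeobox gene reported for THP-1, was lower in THP-1 than in HL-60 with DMSO (log2 difference -0.99, limma adjusted p = 0.0372), and of 7 measured monocyte genes 2 were higher and 1 lower. The names THP-1 and HL-60 therefore stand for the labels, and a direction between the lines is a direction between arrays so labelled. Markers of T, B, erythroid and epithelial cells did not pass the test in any contrast shown here. EPCAM, KRT19 and ALAS2 were above background on 0 of 8 arrays. The others were not absent by this measure. HBB was above background on 8 arrays, KRT8, CD3E and CD2 on 7, MS4A1 on 6, CD79A on 4, CD3D on 3 and CDH1 on 2.

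Of the 15 probe sets, 9 were above background on all 8 arrays, namely those of CYCS, CASP9, DIABLO, BIRC2 and BIRC5 and APAF1 204859_s_at. Both CASP6 probe sets were above it on 7 arrays, all except THP-1 DMSO replicate 2. Both XIAP probe sets were above it on 6 arrays, APAF1 211554_s_at on 5 and APAF1 211553_x_at on 2. For the last of these no fold is given.

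No member of the pathway passed the test with diclofenac in either line. The nearest were APAF1 in HL-60, at 0.64 times the DMSO level, and the BIRC5 probe set 202094_at in THP-1, at 0.74 times. Differences are log2 intensities, diclofenac minus DMSO, after an offset of 50 and quantile normalisation, with the moderated standard error of limma, and a call needs a Benjamini-Hochberg adjusted p under 0.05 over all 22215 probe sets tested. In HL-60 0 of 15 probe sets passed, where 0.0045% of all did (1 probe set), and in THP-1 0 of 15 passed, where 0.135% did (30 probe sets). At an unadjusted p under 0.05, 1 of 15 passed in each line, against 4.51% of all probe sets in HL-60 and 10.6% in THP-1. Normalised values of the diclofenac and DMSO arrays did not overlap for 3 of 15 in THP-1 and for 9 of 15 in HL-60. Over all probe sets this was so for 39.5% in THP-1 and 39.3% in HL-60. The median over the 15 was -0.04 in THP-1 and -0.13 in HL-60, against -0.02 and 0.00 over all probe sets. The standard errors of the members ran from 0.12 to 0.45 log2 units in both lines.

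**Figure D1:**
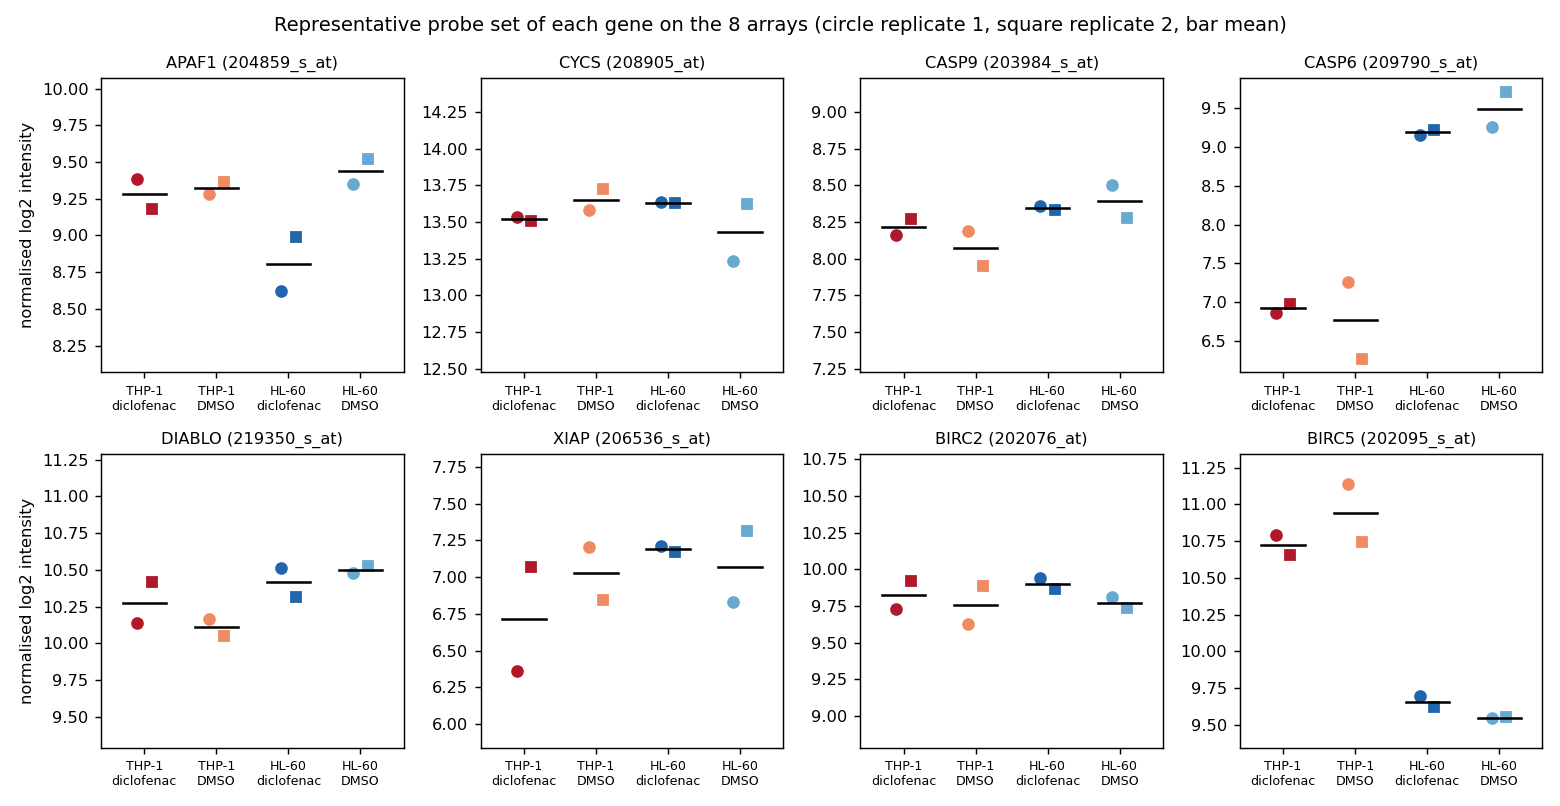
Normalised log2 intensity of the representative probe set of each of the 8 genes on the 8 arrays, with circles for replicate 1, squares for replicate 2 and a bar for the mean of each group; each panel has its own vertical axis, which does not start at 0. CASP6 lies between 6.27 and 7.26 on the 4 THP-1 arrays and between 9.16 and 9.72 on the 4 HL-60 arrays, and BIRC5 between 10.65 and 11.14 and between 9.55 and 9.70; the other 6 genes show no such gap.

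APAF1, the scaffold of the apoptosome, had the largest difference of the members in HL-60. Its brightest probe set, 204859_s_at, read 338.7 and 440.2 on the HL-60 diclofenac arrays, against 615.8 and 685.4 on the HL-60 DMSO arrays. Both diclofenac arrays lay below both DMSO arrays. The log2 difference was -0.63 ± 0.19 (SE; 95% interval -1.07 to -0.20; unadjusted p = 0.010 and adjusted p = 0.83 in limma), so it did not pass. On the THP-1 arrays the same probe set read 621.4 and 509.6 with diclofenac, against 550.7 and 646.1 with DMSO. These groups overlapped, and the log2 difference was -0.04 ± 0.19 (adjusted p = 0.94), or 0.00 ± 0.20 without THP-1 DMSO replicate 2. The test of the difference between the lines gave 0.59 ± 0.27 (adjusted p = 0.73), so the effect was not shown to differ. Averaged over both lines, it was -0.34 ± 0.14 (unadjusted p = 0.036 and adjusted p = 0.66 in limma).

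The other APAF1 probe sets were dim and did not share one pattern. APAF1 211554_s_at read 97.9 and 39.7 with diclofenac, against 116.1 and 107.8 with DMSO, in HL-60. In THP-1 it read 72.9 and 31.2 with diclofenac, against 129.1 and 145.1 with DMSO. Its lower deposited values with diclofenac overlapped those of DMSO after normalisation, with log2 differences of -0.32 ± 0.43 in HL-60 and -0.55 ± 0.43 in THP-1 (adjusted p = 1.00 and 0.59). With THP-1 DMSO replicate 2 left out the value there was -0.92 ± 0.41 (adjusted p = 0.54). APAF1 211553_x_at, which may bind several transcripts, read 9.1 to 58.9 on the 4 HL-60 arrays, and 10.8 to 194.1 on the 4 THP-1 arrays.

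CYCS, which encodes cytochrome c, the ligand that opens APAF1, was bright on every array. It read 12184 and 15548.3 on the HL-60 diclofenac arrays, against 9045.2 and 12413.8 on the HL-60 DMSO arrays. In THP-1 it read 11902.9 and 12562.9 with diclofenac, against 13753.2 and 10321 with DMSO. The deposited values overlapped in both lines. After normalisation both diclofenac arrays lay above both DMSO arrays in HL-60, by little (log2 13.63 and 13.64 against 13.23 and 13.63), and below them in THP-1. The log2 differences were 0.20 ± 0.12 in HL-60 (adjusted p = 1.00) and -0.13 ± 0.12 in THP-1 (adjusted p = 0.63), and the THP-1 value was -0.06 without THP-1 DMSO replicate 2. These had the smallest standard error of the 15.

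CASP9, the initiator caspase of the apoptosome, gave probe sets that disagreed in THP-1. Probe set 203984_s_at read 224.4 and 238.4 with diclofenac, against 211.4 and 310.6 with DMSO, in THP-1. In HL-60 it read 270.3 and 253.8 with diclofenac, against 331.4 and 247.6 with DMSO. Both pairs overlapped, with log2 differences of 0.15 ± 0.25 in THP-1 and -0.04 ± 0.25 in HL-60 (adjusted p = 0.81 and 1.00). The first of these was 0.03 without THP-1 DMSO replicate 2. Probe set 210775_x_at read 221.1 and 164.9 with diclofenac, against 211.8 and 622.5 with DMSO, in THP-1. Its log2 difference there was -0.73 ± 0.36 (adjusted p = 0.49), and it rested on 1 array: without THP-1 DMSO replicate 2 it was -0.19 ± 0.23, and with that array alone it was called. In HL-60 this probe set read 237.4 and 224.6 with diclofenac, against 345 and 281.7 with DMSO. Both diclofenac arrays were below both DMSO arrays, with a log2 difference of -0.28 ± 0.36 (adjusted p = 1.00).

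CASP6, an effector caspase known to cut lamin A, had no called difference with diclofenac. Probe set 209790_s_at read 526.1 and 528.7 on the HL-60 diclofenac arrays, against 579.4 and 790.4 on the HL-60 DMSO arrays. In THP-1 it read 60.9 and 64.5 with diclofenac, against 84.7 and 72.7 with DMSO. The HL-60 groups were separate and the THP-1 groups overlapped after normalisation, with log2 differences of -0.30 ± 0.37 (adjusted p = 1.00) and 0.16 ± 0.37 (adjusted p = 0.87). With THP-1 DMSO replicate 2 left out it was -0.34 ± 0.25, the opposite direction. The second probe set, 211464_x_at, read 402.8 and 701.4 with diclofenac, against 530.6 and 921.2 with DMSO, in HL-60. In THP-1 it read 167.5 and 111.4 with diclofenac, against 127.3 and 200.6 with DMSO. It overlapped in both lines, with differences of -0.31 ± 0.37 in HL-60 and 0.20 ± 0.37 in THP-1. With THP-1 DMSO replicate 2 left out the value there was 0.01 ± 0.42.

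DIABLO, the IAP antagonist, had no called difference with the drug. It read 1084.1 and 1332.4 with diclofenac, against 1109.5 and 961.5 with DMSO, in THP-1. The HL-60 arrays read 1457 and 1230.2 with diclofenac, against 1361.8 and 1448.4 with DMSO. The groups overlapped in both lines. The log2 differences were 0.17 ± 0.14 in THP-1 (95% interval -0.15 to 0.48) and -0.09 ± 0.14 in HL-60 (-0.40 to 0.23), and the THP-1 value was 0.11 without THP-1 DMSO replicate 2.

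Among the IAPs, XIAP, the caspase inhibitor, was near background. Probe set 206536_s_at read 28.5 and 71.3 with diclofenac, against 79.4 and 133.7 with DMSO, in THP-1. The HL-60 arrays read 83.6 and 76.1 with diclofenac, against 76.1 and 95.5 with DMSO. After normalisation the groups of this probe set overlapped in both lines. Probe set 206537_at read 78.7 and 43.2 with diclofenac, against 47.9 and 51.5 with DMSO, in THP-1. The HL-60 arrays read 50.7 and 49.5 with diclofenac, against 91.5 and 65.7 with DMSO. Here the groups overlapped in THP-1, and the HL-60 diclofenac arrays lay below the DMSO arrays. The THP-1 differences of 206536_s_at and 206537_at had opposite signs, -0.31 ± 0.39 and 0.48 ± 0.36, and so had the HL-60 differences, 0.12 ± 0.39 and -0.17 ± 0.36 (adjusted p from 0.58 to 1.00 over these 4). Leaving out THP-1 DMSO replicate 2 gave -0.48 and 0.09 in THP-1. No XIAP probe set passed the test.

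BIRC2, also called cIAP1, varied least between groups, over 0.15 log2 units of its 4 group means. It read 959.2 and 869.1 with diclofenac, against 848.1 and 801.9 with DMSO, in HL-60. In THP-1 it read 807.1 and 927.6 with diclofenac, against 728.9 and 869 with DMSO. The HL-60 groups were separate and the THP-1 groups overlapped, with log2 differences of 0.13 ± 0.15 (95% interval -0.21 to 0.47) and 0.07 ± 0.15 (-0.27 to 0.41). The THP-1 value was 0.20 ± 0.13 without THP-1 DMSO replicate 2.

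BIRC5, survivin, had differences of opposite sign in the 2 lines at 2 of 3 probe sets, none of which passed the test. Probe set 202095_s_at read 1774.5 and 1603.5 with diclofenac, against 2332.7 and 1452.5 with DMSO, in THP-1. The HL-60 arrays read 788.7 and 717.9 with diclofenac, against 708.9 and 699.7 with DMSO. The THP-1 groups overlapped and the HL-60 diclofenac arrays lay above the DMSO arrays. The log2 differences were -0.22 ± 0.15 in THP-1 (adjusted p = 0.56) and 0.11 ± 0.15 in HL-60 (adjusted p = 1.00). Probe set 202094_at read 629.2 and 620.1 with diclofenac, against 794.3 and 900.6 with DMSO, in THP-1. The HL-60 arrays read 501.3 and 455.3 with diclofenac, against 448.3 and 410.3 with DMSO. Here both lines were separate, in opposite directions, with -0.43 ± 0.16 in THP-1 (adjusted p = 0.41) and 0.18 ± 0.16 in HL-60 (adjusted p = 1.00). The difference between the lines was -0.61 ± 0.22 (unadjusted p = 0.025 and adjusted p = 0.65 in limma). Probe set 210334_x_at read 646.9 and 625.1 with diclofenac, against 858.1 and 560.1 with DMSO, in THP-1. In HL-60 it read 308.1 and 296.2 with diclofenac, against 350.2 and 358.5 with DMSO. It overlapped in THP-1 and was separate in HL-60, with log2 differences of -0.04 ± 0.25 and -0.13 ± 0.25. With THP-1 DMSO replicate 2 left out, the differences in THP-1 of 202095_s_at, 202094_at and 210334_x_at were -0.42, -0.34 and -0.42 (adjusted p = 0.27, 0.48 and 0.43).

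The test of the difference between the lines called 0 of 15 (0.0045% of all probe sets, 1 in number), and 1 of 15 had an unadjusted p under 0.05, against 6.95% of all. The average effect over both lines called 0 of 15 (0.099% of all, 22 probe sets), and again 1 of 15 had an unadjusted p under 0.05, against 7.24%. Its narrowest member interval was that of CYCS, -0.15 to 0.22.

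**Figure D2:**
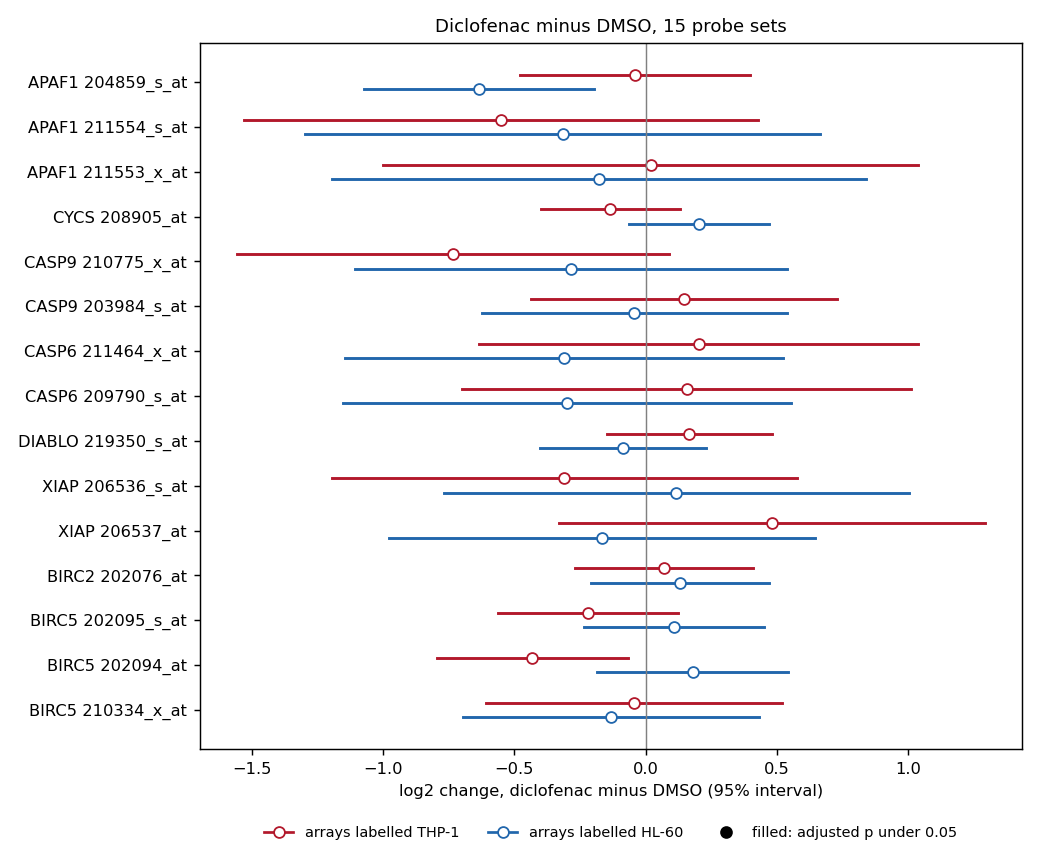
Log2 difference, diclofenac minus DMSO, of the 15 probe sets in THP-1 and HL-60 with 95% intervals from limma; no point is filled because no adjusted p was under 0.05. The interval excludes 0 for APAF1 204859_s_at in HL-60 (-1.07 to -0.20) and for BIRC5 202094_at in THP-1 (-0.79 to -0.07).

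The lines differed in CASP6 and BIRC5 whichever solvent or drug they received. With DMSO, 4 of 15 probe sets passed in THP-1 minus HL-60, 2 of BIRC5 higher and 2 of CASP6 lower in THP-1, against 15.3% of all 22215 probe sets (7.59% higher and 7.72% lower). With diclofenac 4 of 15 passed, again 2 of BIRC5 higher and 2 of CASP6 lower, against 13% of all (6.79% higher and 6.22% lower). Groups did not overlap for 8 of 15 with DMSO and 11 of 15 with diclofenac, where 49.5% and 58.9% of all probe sets did not. In extracts of whole cultures, fewer cells that hold a transcript and less of it per cell cannot be told apart.

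CASP6 209790_s_at, at 60.9 to 84.7 on the THP-1 arrays and 526.1 to 790.4 on the HL-60 arrays, was 6.61-fold lower in THP-1 with DMSO. This is a log2 difference of -2.73 ± 0.37 (adjusted p = 0.0016), or -2.32 ± 0.25 without THP-1 DMSO replicate 2 (adjusted p = 0.00080). With diclofenac it was -2.27 ± 0.37 (adjusted p = 0.0046). Probe set 211464_x_at was lower in THP-1 as well, by -2.07 ± 0.37 with DMSO (adjusted p = 0.0059) and -1.55 ± 0.37 with diclofenac (adjusted p = 0.024), and every THP-1 array lay below every HL-60 array for both. The order of the 4 group means of 209790_s_at was HL-60 with DMSO (9.49 ± 0.32, SD of 2 arrays), HL-60 with diclofenac (9.19 ± 0.04), THP-1 with diclofenac (6.92 ± 0.08) and THP-1 with DMSO (6.76 ± 0.70). Only the step between the lines was larger than the spread. The offset makes these folds too small where intensities are low.

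BIRC5 202095_s_at, at 1452.5 to 2332.7 on the THP-1 arrays and 699.7 to 788.7 on the HL-60 arrays, was 2.63-fold higher in THP-1 with DMSO. The log2 difference was 1.39 ± 0.15 with DMSO (adjusted p = 0.00042), 1.63 ± 0.11 without THP-1 DMSO replicate 2, and 1.07 ± 0.15 with diclofenac (adjusted p = 0.0020). Every THP-1 array lay above every HL-60 array for all 3 BIRC5 probe sets. Probe set 202094_at was called with DMSO (0.95 ± 0.16, adjusted p = 0.0044) and not with diclofenac (0.34 ± 0.16, adjusted p = 0.25). Probe set 210334_x_at was called with diclofenac (0.92 ± 0.25, adjusted p = 0.043) and not with DMSO (0.83 ± 0.25, adjusted p = 0.057). Without THP-1 DMSO replicate 2 the values with DMSO were 0.88 for 202094_at and 1.24 for 210334_x_at. On the deposited scale 210334_x_at was also called with DMSO (0.88, limma adjusted p = 0.017). Median centring in place of quantile normalisation kept the direction of all 3 and ended their calls, with 1.09 (adjusted p = 0.19) and 1.07 (adjusted p = 0.26) for 202095_s_at with DMSO and with diclofenac.

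The other 6 genes had no call between the lines. DIABLO was lower in THP-1 with DMSO by a log2 value of -0.39 ± 0.14 (adjusted p = 0.098), with separate groups, and differed by -0.14 ± 0.14 with diclofenac. APAF1 204859_s_at differed by -0.11 ± 0.19 with DMSO and by 0.48 ± 0.19 with diclofenac (adjusted p = 0.17). CYCS differed by 0.22 ± 0.12 and -0.11 ± 0.12, and BIRC2 by -0.02 ± 0.15 and -0.08 ± 0.15, with DMSO and with diclofenac.

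**Figure D3:**
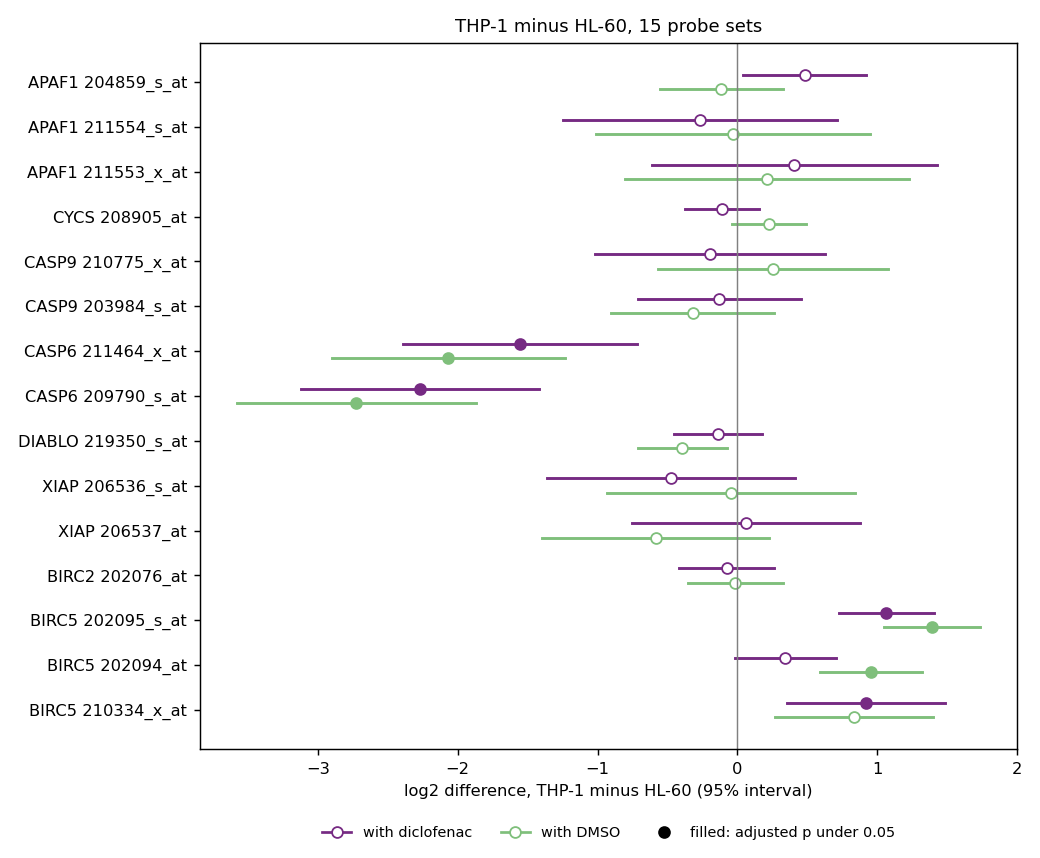
Log2 difference, THP-1 minus HL-60, of the 15 probe sets with diclofenac and with DMSO, with 95% intervals from limma and filled points where the adjusted p was under 0.05. Both CASP6 probe sets lie to the left of 0, at -1.55 to -2.73, and all 3 BIRC5 probe sets to the right, at 0.34 to 1.39.

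CASP6 209790_s_at had the widest range of group means of the members, 2.73 log2 units. Of 5718 gene representatives above background on all arrays, the 5 whose 4 group means lay nearest to it, each centred on its own mean, were COL4A2, WIPF1, PIR, ADA and NPC1, with root-mean-square differences of 0.11 to 0.15 log2 units. COL4A2 read 145.6 to 263.5 on the THP-1 arrays and 883.2 to 1429.7 on the HL-60 arrays. This likeness rests on 4 group means and on the same 8 arrays, and mainly on the step between the lines.

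Other genes of the pathway were taken by list, each by its brightest probe set. Of 19 other caspases and caspase substrates 16 were annotated, of 12 other IAPs and IAP partners 5, of 18 mitochondrial factors and apoptosome cofactors 14, and of 22 genes of the G2 and M phases, when BIRC5 is made, 22. Diclofenac called 0 genes of any of these 4 lists in either line. At an unadjusted p under 0.05, in THP-1, 1 caspase or substrate gene was higher and 1 lower, 0 IAP partners passed, 1 mitochondrial gene was higher and 2 lower, and 1 G2/M gene was higher and 5 lower, where 5.44% of all probe sets were higher and 5.2% lower.

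The median log2 difference of the caspase and substrate list in THP-1 was 0.31, with 11 of 16 above 0, and of -0.03 in HL-60. The THP-1 median was -0.04 without THP-1 DMSO replicate 2. Its largest THP-1 values were those of LMNA, a nuclear lamin that CASP6 cuts, and SPTAN1, a spectrin that caspases cut. LMNA read 812.8 and 776.8 with diclofenac, against 378.9 and 124.7 with DMSO, and differed by 1.91 (adjusted p = 0.31), or by 0.92 without that array (adjusted p = 0.083). SPTAN1 differed by 1.18 (adjusted p = 0.50), or by 0.09 without it. The lowest named were ACIN1, a chromatin factor, at -0.31 in HL-60, and LMNB1, a B-type lamin, at -0.30 in THP-1 (-0.21 without that array). CASP5, an inflammatory caspase, had the lowest value of the list, -0.72 in THP-1. This rested on THP-1 DMSO replicate 2, which read 382.7 against 7.2 on replicate 1, and without it the value was 0.48. CASP5 was above background on only 3 of 8 arrays and on both arrays of no group. It falls outside the rule for named genes and was chosen after its values were seen.

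The IAP partners had a median of 0.49 in THP-1, or 0.05 without THP-1 DMSO replicate 2, and of 0.00 in HL-60. HTRA2, a mitochondrial protease that binds IAPs, differed by 0.93 in THP-1 (adjusted p = 0.53), and by 0.05 without that array. BIRC7, another IAP, differed by -0.66 in HL-60. TRAF1, a partner of BIRC2 at receptors, read 92.8 and 29.4 with diclofenac, against 11 and 84.8 with DMSO, in THP-1. It was above background on 1 of these diclofenac arrays and on 0 of the DMSO arrays, so no difference is given. None passed the test.

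The mitochondrial list had medians of 0.01 in THP-1 and -0.01 in HL-60. ENDOG, a mitochondrial nuclease, differed by 0.87 in THP-1 and by -0.20 without THP-1 DMSO replicate 2. SLC25A4, an ADP/ATP carrier, differed by 0.43 in THP-1 and CYC1, cytochrome c1 of the respiratory chain, by -0.43, or by 0.35 and -0.27 without that array. ANP32A, a cofactor of apoptosome assembly, differed by -0.46 in HL-60 (adjusted p = 0.57).

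The G2/M list, whose genes share the cell cycle phase of BIRC5, differed by a median of -0.19 in THP-1, 5 of 22 being above 0, and of -0.04 in HL-60, with 8 of 22 above 0. With THP-1 DMSO replicate 2 left out the median was -0.17, with 4 of 22 above 0. Over all probe sets the medians were -0.02 and 0.00. INCENP, a passenger complex partner of BIRC5, read 77.8 and 17.8 with diclofenac, against 115.5 and 350.6 with DMSO, in THP-1. The second diclofenac value was below background. INCENP differed by -1.24 in THP-1 (adjusted p = 0.39), and by -0.92 without THP-1 DMSO replicate 2, and both values use that dim reading. CENPE, a kinetochore motor, differed by -0.59 in THP-1 (-0.61 without it). CCNA2, cyclin A2, differed by 0.48 in THP-1, which rested on that array: without it the value was 0.11 (adjusted p = 0.86). CDC20, an activator of the anaphase-promoting complex, differed by 0.34 in HL-60.

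The G2/M list was also set between the lines, because BIRC5 was higher in THP-1. With DMSO 3 of 22 were higher and 4 lower in THP-1 than in HL-60, with a median of -0.05. Over all probe sets 7.59% were called higher and 7.72% lower. UBE2C, a ubiquitin-conjugating enzyme of mitotic exit, was higher by 2.91, TTK, a spindle checkpoint kinase, by 0.66 and AURKA, a centrosome kinase, by 0.49. MKI67, a proliferation marker, was lower with a log2 difference of -1.01, and so were CENPF (-0.56) and BUB1B (-0.43). The passenger complex partners of BIRC5 differed by 0.05 (AURKB), 0.11 (INCENP) and -0.76 (CDCA8), of which only CDCA8 passed (adjusted p = 0.0098). With diclofenac 2 of 22 were higher and 7 lower, with a median of -0.21, against 6.79% higher and 6.22% lower over all probe sets. UBE2C (2.58) and TTK (0.73) were again higher, and MKI67 (-0.99), CENPF (-0.73), CDCA8 (-0.70) and BUB1B (-0.69) again lower. The cyclins CCNB1 (-0.46) and CCNB2 (-0.41) and the topoisomerase TOP2A (-0.45) were lower as well.

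Among the other lists with DMSO, 4 of 16 caspase and substrate genes were higher and 2 lower in THP-1. Of 5 IAP partners 0 passed, and of 14 mitochondrial genes 4 were higher and 4 lower. Over all probe sets 7.59% were called higher and 7.72% lower with DMSO, and 6.79% and 6.22% with diclofenac. CASP1, the inflammatory caspase, was higher by 0.64, GSN, a caspase substrate that severs actin, by 1.10, LMNB1 by 0.73 and PAK2, a kinase activated by caspase cleavage, by 0.57. LMNA was lower with -1.93 (adjusted p = 0.041) and ROCK1, a kinase that drives blebbing, with -0.48. LMNA was lower with -0.94 without THP-1 DMSO replicate 2, and differed by 0.09 with diclofenac. AIFM1, the apoptosis-inducing factor, was lower with -1.64 (adjusted p = 0.0044), as were SLC25A5, an ADP/ATP carrier (-1.03), ANP32A (-0.99) and VDAC3, an outer membrane channel (-0.77). OPA1, a cristae GTPase, was higher by 1.01, VDAC1, another outer membrane channel, by 0.87, CYC1 by 0.75 and the chaperone gene HSP90AA1 by 0.24. Without THP-1 DMSO replicate 2 each pathway gene named as higher or lower between the lines with DMSO kept its call except HSP90AA1 (0.23, adjusted p = 0.10), and DFFB and MAD2L1 were called in addition. With diclofenac the genes called were LMNB1 (0.61), GSN (1.44) and PAK2 (1.01) higher and ROCK1 (-0.43) lower among caspases and substrates. Among mitochondrial genes VDAC1 (0.50) was higher, and AIFM1 (-1.24), SLC25A5 (-1.24), ANP32A (-0.49) and VDAC3 (-0.47) were lower.

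**Figure D4:**
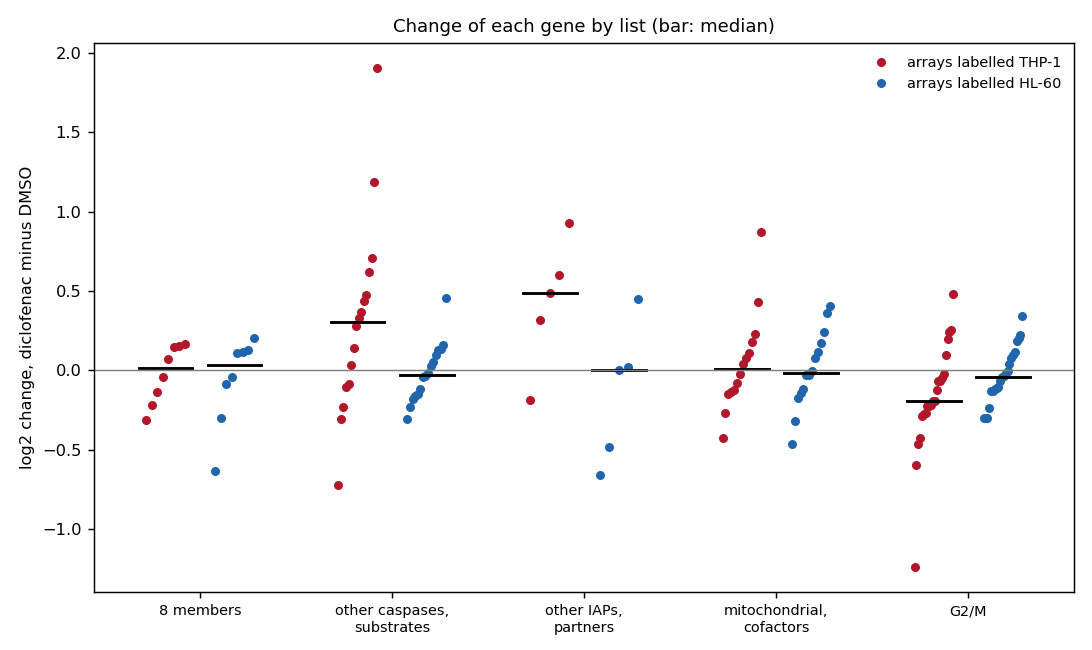
Log2 difference, diclofenac minus DMSO, of each gene by list, red for THP-1 and blue for HL-60, with a bar at the median. THP-1 medians are 0.31 for other caspases and substrates, 0.49 for other IAPs and partners and -0.19 for G2/M genes, and HL-60 medians lie between -0.04 and 0.03.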

How the data were processed

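The 8 Affymetrix arrays of THP-1 and HL-60 cells were used, with groups and replicate numbers from the labels. The deposited intensity values are linear, 1 per probe set and array, scaled to a trimmed mean (2% cut at each end) of 500.1 to 500.2. Per the labels, biotin-labelled cRNA was made from total RNA. The software behind the intensities is not given in the sources used here. Of 22277 probe sets, 62 controls were left out. The annotation gave 1 symbol for 19064 probe sets, several for 1043, and did not list 2108.

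Deposited intensities plus 50 were turned to log2, quantile normalised and fitted as 4 group means over all 8 arrays with limma 3.58.1 in R 4.3.3, with an intensity trend and 4 residual degrees of freedom. Errors are moderated standard errors, and Benjamini-Hochberg adjustment ran over 22215 probe sets for each of 6 contrasts. The fit was tested on simulated data with the same spread on all arrays, unlike THP-1 DMSO replicate 2 here. For diclofenac it called 24.4% of planted changes of 1 log2 unit in HL-60 and 22% in THP-1. For changes of 2 units it called 85.2% and 86.7%. Of all its calls 4.36% in HL-60 and 6.13% in THP-1 were false. Most changes of 1 log2 unit would thus be missed. The number of arrays limits the precision. Arrays of the same replicate number deviated together with a correlation of -0.01 in THP-1 and -0.00 in HL-60, so no block was fitted.

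A gene's representative was its brightest probe set, with x_at probe sets taken only where no other existed. All 8 members were named. Per list, the genes named were the 2 largest differences in each direction in either line with diclofenac, among genes above background on both arrays of at least 1 group, and any that passed the test in a contrast, and 5 genes were named for likeness to the most variable member. Members and lists were chosen with earlier results of these data known. Promoter windows came from RefSeq. Alternatives covered scaling, offset, a filter of the dimmest 40%, the intensity trend, array weights, a replicate block, each line alone, averaging the probe sets of a gene, and omission of each array. Plots used matplotlib 3.10.9 (Python 3.11.15).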

Additional observations from a re-analysis of the deposited data

Results flagged for a closer look

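After normalisation, 2 of the 15 member probe sets had both THP-1 diclofenac arrays below both THP-1 DMSO arrays. For the same 2, both HL-60 diclofenac arrays lay above both HL-60 DMSO arrays. How many of all probe sets share this pattern was not counted. In either direction, groups did not overlap for 39.5% of all probe sets in THP-1 and 39.3% in HL-60. The CYCS gap in HL-60 was small, log2 13.6291 against 13.6254 for the nearest arrays. BIRC5 202094_at was lower in THP-1 with diclofenac (-0.43) and higher in HL-60 (0.18), and the difference between these effects was -0.61 ± 0.22 (limma adjusted p = 0.65). CYCS 208905_at differed by -0.13 in THP-1 and 0.20 in HL-60, and the difference between these effects was -0.34 ± 0.16 (limma adjusted p = 0.73). Neither difference passed the test. The other BIRC5 probe sets, 202095_s_at and 210334_x_at, gave -0.33 and 0.09, and the CYCS arrays overlapped in deposited intensity. Without THP-1 DMSO replicate 2 these differences between effects were -0.535 (202095_s_at), -0.526 (202094_at) and -0.281 (210334_x_at) for BIRC5. The CYCS value was then -0.267.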

How the results depend on the processing

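Diclofenac called 0 members in HL-60 under every alternative run, and 0 in THP-1, in the difference between the lines and in the average except without THP-1 DMSO replicate 1. Leaving out 1 array at a time gave 0 to 2 calls in THP-1, 0 to 2 in the difference and 0 to 1 in the average. The 2 THP-1 calls were BIRC5 202094_at and CASP9 210775_x_at, in a fit that called 6898 probe sets in all and rests on the array with the high background. Over all alternatives the THP-1 contrast called 0 to 6898 of all probe sets (30 as reported) and the HL-60 contrast 0 to 28 (1 as reported). THP-1 minus HL-60 with DMSO called 4 member probe sets, 2 with median centring, 2 of 8 genes with probe sets averaged by gene, and 4 to 8 leaving out 1 array. With diclofenac it called 4, 2 with median centring, 2 without the intensity trend, 2 of 8 genes with such averages, and 1 to 4 leaving out 1 array. Array weights went both ways: 3 calls with DMSO, without CASP6 211464_x_at, and 6 with diclofenac, with APAF1 204859_s_at (adjusted p = 0.034) and BIRC5 202094_at in addition.

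CASP6 209790_s_at was called with DMSO under 17 of 17 alternatives (-3.71 to -2.32) and with diclofenac under 15 of 17, not without HL-60 diclofenac replicate 1 (adjusted p = 0.052) or 2 (adjusted p = 0.058). BIRC5 202095_s_at was called under 16 of 17 in both, not with median centring. With DMSO CASP6 211464_x_at was called under 15 of 17 and BIRC5 202094_at under 16 of 17. With diclofenac CASP6 211464_x_at was called under 13 of 17 and BIRC5 210334_x_at under 8 of 17 (adjusted p up to 0.35). The replicate block changed 1 call, BIRC5 210334_x_at with diclofenac (0.92, adjusted p = 0.057), and no other.

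Of 675 values of 39 single results under the alternatives, 622 kept direction and call, 20 lost a call, 3 gained one and 30 turned direction, none with a reported log2 size over 0.31. Median centring turned CASP9 (0.0503) and DIABLO (0.0949) in HL-60, APAF1 (0.28), CYCS (0.39) and BIRC5 (0.23) in THP-1, and CYCS between lines with DMSO (-0.0689). The median of all probe sets was then 0.15 in THP-1 and 0.10 in HL-60. The deposited scale turned CYCS (0.0374), CASP9 (-0.13) and CASP6 (-0.19) in THP-1, XIAP in HL-60 (-0.0615) and XIAP between lines with DMSO (0.19), where the median of all probe sets was -0.20 in THP-1 and -0.06 in HL-60. Relative to the median of all probe sets under the same scaling, APAF1 (0.13), CYCS (0.24) and BIRC5 (0.08) in THP-1 and CYCS between lines with DMSO (-0.03) turned, and the others named for these scalings did not. The mean of probe sets turned CASP9 (-0.29) and XIAP (0.0854) in THP-1, XIAP in HL-60 (-0.0243) and APAF1 between lines with DMSO (0.021). Leaving out 1 array gave ranges across 0 for APAF1 (-0.14 to 0.0632), CASP6 (-0.34 to 0.66), XIAP (-0.66 to 0.0414) and BIRC2 (-0.0564 to 0.20) in THP-1, and for CASP9 (-0.16 to 0.0724), DIABLO (-0.18 to 0.0123) and XIAP (-0.12 to 0.36) in HL-60. It did so between the lines with DMSO for XIAP (-0.29 to 0.19) and BIRC2 (-0.15 to 0.11), and with diclofenac for DIABLO (-0.28 to 0.0008) and BIRC2 (-0.17 to 0.017). The cause was not tested. XIAP 206536_s_at was lost to the filter on dim probe sets, and signal over background limits XIAP and the dim APAF1 probe sets.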

Other observations

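Marker genes outside the pathway also differed between the lines. With DMSO, CD36, a scavenger receptor of monocytes, was lower in THP-1 than in HL-60 by a log2 difference of -4.16 (limma adjusted p = 3e-06), and S100A9, a calcium-binding protein of myeloid cells, was higher by 3.01. CD14, the endotoxin co-receptor of monocytes, read 332.9 and 310.5 on the THP-1 diclofenac arrays, against 55.6 and 45.2 on the THP-1 DMSO arrays, of which the second was below background. Its log2 difference with diclofenac in THP-1 was 2.18 (limma adjusted p = 0.12), and on the HL-60 arrays it was above background on 0 of 4. MPO read 203.9 and 170.6 with diclofenac, against 201.4 and 235.6 with DMSO, in THP-1. The second of these DMSO values was below the background of its array, 238.63. In HL-60 MPO read 61.2 and 57.8 with diclofenac, against 41.7 and 40.6 with DMSO, and both of these DMSO values were below background.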
